A study of Mus musculus with 8 samples.

Results

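The 5 libraries of the FAP-ctrl group are described here on their own: which transcripts dominated fibro/adipogenic progenitors (FAPs) 3 days after glycerol injury, at what level, and how far the libraries differed from each other. They are 5 of the 8 RNA-seq samples of the series and were chosen by their genotype label, FAP-ctrl. The other 3 samples, FAP-no cilia, in which a floxed Ift88 allele was deleted conditionally, enter no comparison here. The FAP-ctrl cells came, per the labels and the series design text, from wild type tibialis anterior of mixed background mice, and total RNA was read as single-end reads of 50 bases. The labels give neither age nor sex, neither the surface markers used for purification nor the number of animals behind a library. The spread given here is therefore a spread between libraries, which may be technical in part. Of 37991 genes listed, 13355 had at least 10 normalized reads in each of the 5 libraries and count as detected, 12382 of them protein coding.

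FAPs are mesenchymal cells that lie between muscle fibres. They are quiet in healthy muscle. After injury they divide, lay down a transient matrix and secrete factors that act on muscle stem cells and incoming leukocytes, and they are a source of fat and scar tissue when regeneration fails. Glycerol destroys muscle fibres when injected and is used because fat forms afterwards. An early day after injury falls in the phase when leukocytes are abundant and FAPs divide.

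The values are read counts divided by a size factor of the library, or normalized reads. The libraries held 25.2 to 43.9 M gene reads, and 1 read was worth 0.610 to 1.07 normalized reads. Across 14443 genes with a mean of at least 10, the log2 levels of any 2 libraries had a Pearson r between 0.974 and 0.987, given as a description across genes, which are not independent. Libraries 1 and 2 were the most alike, with 501 genes at least 2-fold apart, and libraries 3 and 5 the least alike, with 1274. Library 3 stood apart in interferon-stimulated genes, and library 5 in heat shock chaperones and mitochondrial transcripts, so results that these touch are given by library. Over all 13355 detected genes, 11.1%, 21.5%, 26.4%, 18.6% and 22.5% were highest in libraries 1 to 5, and 11.1%, 17.9%, 28.2%, 16.0% and 26.8% lowest, which is the background for the counts of list members given below. Xist, the RNA of the silenced X chromosome, had 118, 32.1, 27423, 27801 and 19158 normalized reads in libraries 1 to 5, and the Y-linked Ddx3y had 4456, 4079.7, 32.6, 0.868 and 3.65, so libraries 1 and 2 were unlike the other 3 in sex-linked genes. An exact 2-sided sign-flip permutation test over 5 libraries cannot give a p under 0.0625, so no order of 2 genes was tested, and the number of libraries that show it is given instead. Levels of single genes, ranks apart, are set side by side as normalized reads per kb of exon ("per kb"), with the SD over 5 libraries. Shares of lists are sums of normalized reads, corrected neither for length nor for the number of members. Ranks are by mean normalized reads over all genes listed.

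All 5 markers of FAPs were abundant, each among the 1000 highest genes. Pdgfra, the receptor for platelet-derived growth factor that marks mesenchymal progenitors of muscle, had 38473, 45321, 51005, 47913 and 33773 normalized reads in libraries 1 to 5 and ranked 47. Dcn, which encodes the collagen-binding proteoglycan decorin, had 113352, 116022, 123442, 98966 and 75142. Both were highest in library 3 and lowest in library 5. Thy1 had 5897 to 7575 and Cd34 6704 to 8021, and both are surface proteins of stromal and progenitor cells. Ly6a, which encodes the surface antigen Sca-1, varied most of the 5, with 25060.1, 45653, 74893, 23649 and 27529 normalized reads. Its highest library, library 3, was 3.17-fold above its lowest, library 4. Per kb the markers stood in the same order in 5 of 5 libraries: Ly6a at 32661 ± 18056, Dcn at 18052 ± 3271, Pdgfra at 4319 ± 703, Thy1 at 2313 ± 207 and Cd34 at 989 ± 72.2. Ift88, the gene targeted in the other group, had 457 to 594 normalized reads.

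A longer list of fibroblast and FAP-subset markers was detected in full (25 of 25). Lum, a proteoglycan of collagen fibrils, led it at 12870.5 ± 1138 per kb and was above Dpt, an adhesive matrix protein at 5408 ± 840.1, in 5 of 5 libraries. Il1rl1, the receptor for IL-33, followed lower at 2813 ± 499.9, and Adam12, known from activated mesenchymal cells after injury, at 2265 ± 187. Vcam1, an adhesion protein of activated FAPs and of satellite cells, had 11914, 11681, 18485, 11321 and 9019 normalized reads, highest in library 3. Ly6c1, of the same gene family as Ly6a, had 2859, 5587, 7118, 2618 and 3334 and shared its highest and lowest libraries.

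Markers of most other cell types that a muscle preparation can hold were far below those of FAPs. The 5 FAP markers together held 0.767% ± 0.141 (SD, n = 5) of all normalized reads. By contrast, 20 macrophage and monocyte markers held 0.00679%, 14 endothelial markers 0.00314%, 14 muscle fibre markers 0.00121%, 16 neutrophil and lymphocyte markers 0.000863% and 6 erythroid markers 0.000622%. Pax7, the defining factor of satellite cells, had at most 3 reads in any library. So had the neutrophil gene Ly6g, the B-cell gene Ms4a1, the fast myosins Myh1 and Myh2 and the Schwann cell factor Sox10. These genes do not stand for their lists. Detected were 5 of 12 satellite cell and myoblast markers, 5 of 14 muscle fibre markers and 3 of 16 neutrophil and lymphocyte markers. Of 10 glial and Schwann markers, 6 were detected, and the list held 0.00173% of reads. In bulk RNA, fewer cells of a type and less RNA per cell cannot be told apart.

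Macrophage markers were uneven between libraries. Lyz2, lysozyme of myeloid cells, had 965, 466, 601, 257 and 209 normalized reads, and Mrc1, the mannose receptor of tissue macrophages, had 432, 192, 168, 60.7 and 59.2. Of 14 detected markers, 13 were highest in library 1, and the whole list held 0.0121%, 0.00658%, 0.00857%, 0.00301% and 0.00368% of reads in libraries 1 to 5. The erythroid list was at 3.33e-05% in library 5, where Hbb-bs, a haemoglobin chain, had 1.82 normalized reads against 99.7 to 188 in the other 4.

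Adipocyte markers were low, and all 7 detected members were highest in library 5 and lowest in library 4. Fabp4, a fatty acid carrier, led them at 476 ± 138 per kb. Adipoq, the hormone adiponectin of mature fat cells, had 69.5, 84.7, 58.7, 35.6 and 176 normalized reads. Some lists were led by a few members. The tenocyte list held 0.349% of reads, led by Egr1, Tnc and Thbs4. Fmod, Tnmd, Kera and Comp came next per kb, with Thbs4 8.41-fold above Fmod and higher in 5 of 5 libraries. The part of tenocyte RNA in this list was not tested. Scx, the defining tendon factor, had 4.86 ± 1.36 normalized reads and was the lowest of the 10 members per kb. It does not stand for the list, since 8 of the 10 were detected, at a median of 430 per kb. Of these 8, 6 were highest in library 5, as were 22.5% of all detected genes. The list for satellite cells and myoblasts, at 0.0508%, was led by Vcam1, and that for pericytes and smooth muscle, at 0.0234%, by the actin gene Acta2.

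**Figure D1:**
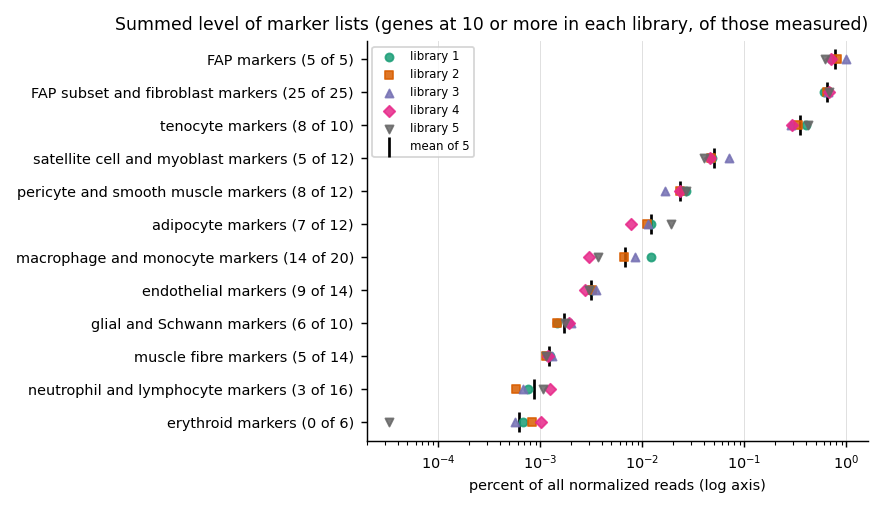
Summed level of each marker list as a percent of all normalized reads, on a log axis; each symbol is 1 FAP-ctrl library and the black bar the mean, and the brackets give the members with at least 10 normalized reads in each library of those measured. FAP markers lie near 0.767%, macrophage markers between 0.00301% and 0.0121%, and the erythroid list is lowest in library 5.

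Matrix transcripts dominated the profile by normalized reads, a scale on which long transcripts count for more. The 10 most abundant genes of a library held 8.63% ± 0.933 of its normalized reads, the top 100 held 24.5% ± 1.05 and the top 1000 held 57.5% ± 0.844, and 682 genes together reached 50% of the mean profile. Of the 20 genes with the highest mean, 19 are named here in order: Col3a1, Col1a2, Fn1, mt-Co1, Sparc, Bgn, Eef1a1, Fbn1, Col1a1, Vim, Col6a3, mt-Co3, Dcn, Fstl1, Col5a2, mt-Cytb, Postn, Nedd4 and mt-Co2. Most encode collagens or proteins that bind them. Col3a1, type III collagen (chromosome 1, 45311538 to 45349706, plus strand, GRCm38), had 554814, 508870, 345528, 427420 and 547398 normalized reads in libraries 1 to 5. Col1a2, a chain of type I collagen (chromosome 6, 4504814 to 4541544, plus strand), had 371717, 346641, 226577, 291119 and 375155. Library 3 was the lowest for both. Of the 19 neighbouring pairs among the 20 only 2, Col3a1 above Col1a2 and Col1a2 above Fn1, held in all 5 libraries.

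Per kb, the mitochondrial transcript mt-Co1, a subunit of cytochrome oxidase, was highest at 144800 ± 33331. After it came mt-Co3 at 144376 ± 34720 and mt-Co2 at 112960 ± 28934. Fbn1, Col6a3 and Postn, at ranks 8, 11 and 17 by normalized reads, ranked 54, 68 and 66 per kb among protein-coding genes. Sparc and Col3a1 ranked 8 and 9 there. The elongation factor Eef1a1 followed among nuclear genes at 66066 ± 5469. Sparc, which binds collagen during its assembly, stood at 48669.8 ± 6385 and Col3a1 at 48574 ± 9079, a difference smaller than their spread, with Sparc higher in 3 of 5 libraries. With the length of the longest transcript in place of all exons, Sparc stood at 80157 and Col3a1 at 85695, so their order depends on the length used. Short transcripts also ranked high on this scale, among them S100a4, a calcium-binding protein of fibroblasts, at 43293 ± 5218, and B2m, the shared chain of class I histocompatibility proteins, at 32273 ± 10985.

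**Figure D2:**
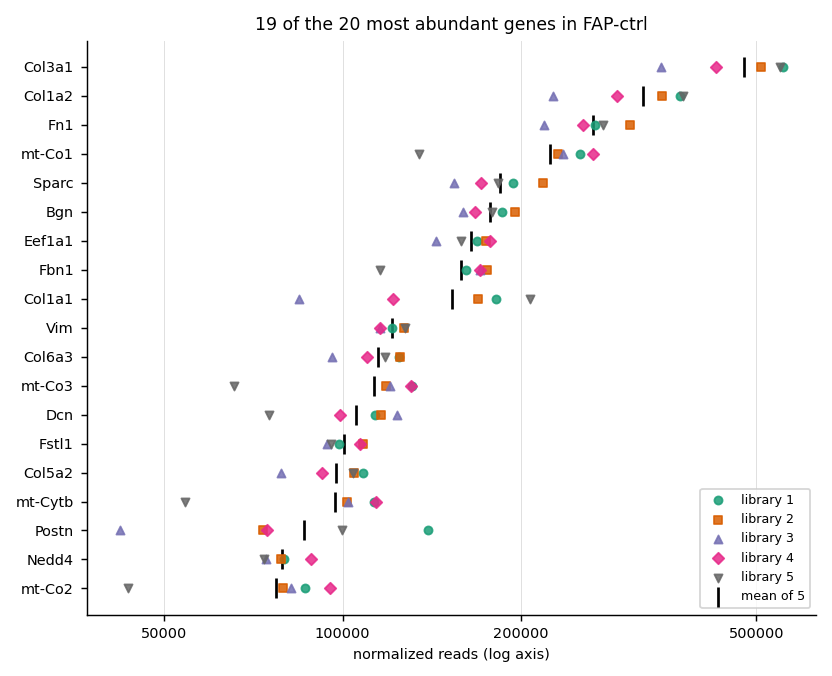
The 19 named genes of the 20 with the highest mean normalized reads, on a log axis; each symbol is 1 FAP-ctrl library and the black bar the mean of 5. Library 3 is lowest for Col3a1, Col1a2, Col1a1 and Postn, and library 5 is lowest for mt-Co1, Dcn and Fbn1.

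By class, the 13 mitochondrial mRNAs held 3.34%, 2.95%, 3.01%, 3.48% and 1.71% of normalized reads in libraries 1 to 5, so library 5 was below the other 4. The 83 genes of cytosolic ribosomal proteins held 2.18% ± 0.147. Long noncoding RNAs held 0.404%, 0.365%, 0.548%, 0.550% and 0.552%, lower in libraries 1 and 2 than in the other 3. Xist, 1 of these RNAs, had 118, 32.1, 27423, 27801 and 19158 normalized reads and showed the same split. Malat1, a nuclear RNA, had 14608, 12408, 23728, 20346 and 4715 normalized reads, lowest in library 5. Neat1, the scaffold of nuclear paraspeckles, had 1012, 990.2, 1789.7, 1398 and 6568 and was highest there.

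Fibrillar collagens, the rope-like fibres of connective tissue, were detected in full (11 of 11) and held 4.81%, 4.43%, 2.91%, 3.77% and 5.33% of normalized reads in libraries 1 to 5. Library 3 was the lowest and library 5 the highest. Col1a1, the main chain of type I collagen, had 181387, 169395, 84305, 121872 and 206912 normalized reads and was 2.45-fold higher in library 5 than in library 3. Per kb, Col1a1 stood at 23278 ± 7491, near Col1a2 at 25933 ± 5084, followed by the type V chains Col5a2 at 10171 ± 1264 and Col5a1 at 5426 ± 1322. With the longest transcript as length, Col1a2 stood at 60255 and Col1a1 at 25763, so the 2 are near only on the first scale. Of the 11 genes, 8 were lowest in library 3 and 7 highest in library 5. Over all 13355 detected genes, 3764 were lowest in library 3 and 3006 highest in library 5.

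Other collagens held 1.03% ± 0.177, led by the beaded-filament chains Col6a1 at 13343 ± 3618 per kb and Col6a3 at 9587 ± 1004. Basement membrane genes held 0.766% ± 0.0896, led by Nid1, which links laminin to collagen IV, at 6894 ± 563 per kb. Col4a1, the collagen of basement membranes, had 25743, 36424, 17248, 17147 and 21173 normalized reads. Its highest library was library 2, unlike the fibrillar collagens.

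Matricellular and adhesive glycoproteins (37 of 37 detected) held 3.25% ± 0.427. Fn1, fibronectin, had 267000, 305962, 219276, 255036 and 274886 normalized reads, and Thbs1, which can activate latent TGF-β, stood at 11924 ± 2101 per kb. Postn, periostin of young matrix, had 139594, 73536, 42062, 74664 and 99842. Spp1, osteopontin, had 10972, 19163, 9635, 6431 and 8549. The libraries with the highest level were thus different, library 1 for Postn and library 2 for Spp1 and Fn1. Small leucine-rich proteoglycans, which set the spacing of collagen fibrils, held 1.40% ± 0.0646, led by Bgn, biglycan, at 29106 ± 2354 per kb.

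Enzymes and chaperones that modify, fold and crosslink collagen (22 of 22 detected) held 1.15% ± 0.113, and 15 of them were highest in library 2. P4hb, a subunit of prolyl hydroxylase, stood at 21551 ± 1460.5 per kb, the collagen chaperone Serpinh1 at 18094 ± 3486 and Lox, lysyl oxidase, at 16001 ± 1738. Chaperones of the endoplasmic reticulum, a list added after values were seen, held 2.13% ± 0.130. Hspa5, a chaperone that binds unfolded proteins, had 69929.8, 79574, 93679, 71612 and 65549 normalized reads, highest in library 3.

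Elastic fibre genes held 0.953%, 0.989%, 0.959%, 0.956% and 0.795% in libraries 1 to 5. Library 5 was below the other 4. Fbn1, the microfibril protein fibrillin, led at 13088 ± 2018 per kb and alone held 0.603% of normalized reads on average. By number of genes, 9 of the 17 detected members were lowest in library 3 and 4 in library 5. The hyaluronan genes were led by Tnfaip6, which modifies and stabilizes hyaluronan, at 17017 ± 3499.6, the synthase Has2 at 6544 ± 1525, the receptor Cd44 at 4252 ± 528 and Vcan, versican, at 3521 ± 959. As a list they held 0.641% ± 0.0896, lowest in library 5.

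Matrix proteases held 0.868% ± 0.0447 and protease inhibitors 0.651% ± 0.0809. Plau, urokinase, led the proteases at 7895 ± 1212 per kb and was above Mmp2, a gelatinase at 5481 ± 1066, in 4 of 5 libraries. Timp1, an inhibitor of metalloproteinases, stood at 17041 ± 3600.3 per kb against 3296 ± 392 for Timp2, higher in 5 of 5 libraries.

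Chemokines led the secreted signals. The list of 35 held 0.922%, 0.876%, 1.10%, 0.830% and 0.618% of normalized reads in libraries 1 to 5, and 23 were detected. Ccl2, which attracts monocytes, had 42204, 40219, 56324, 41484 and 27484 normalized reads, and its relative Ccl7 had 27536, 27097, 36758, 27091 and 18804. Both were highest in library 3 and lowest in library 5. Per kb, Ccl2 at 36505 ± 8986 and Ccl7 at 34278 ± 7937 differed by less than their spread. Cxcl1 and Cxcl5, which attract neutrophils, stood at 19899 ± 4820.5 and 9254 ± 2734, and Cxcl12, which retains blood and stem cells, had 59993, 58994, 61392, 59635 and 40784 normalized reads. Of the 23 detected, 14 were lowest in library 5 and 11 highest in library 3. Ccl22, Ccl28, Xcl1, Cxcl15 and Cxcl17 had at most 3 reads in every library. Macrophages also make chemokines. Their markers were highest in library 1, at 0.0121%, and lower in library 4, at 0.00301%, than in library 5, at 0.00368%; their part in the chemokine levels was not tested.

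The promoter of Cxcl1 is shown because this gene was among the highest chemokines. It is the 200 bases before the annotated start, 5′ to 3′ on the gene's strand, from RefSeq on GRCm38.p6, chr5:90891045-90891244 on the plus strand. Capitals mark the match to GGAATTTCC, a letter string of the kind that NF-κB binds, searched on both strands.
Cxcl1: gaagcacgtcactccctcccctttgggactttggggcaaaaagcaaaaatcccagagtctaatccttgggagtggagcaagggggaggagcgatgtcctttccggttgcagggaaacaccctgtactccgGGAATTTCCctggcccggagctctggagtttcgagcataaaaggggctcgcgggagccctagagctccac
The match begins 70 bases before the start. Of 26 chemokines in the promoter table, 4 (15.4%) hold it in the 300 bases from 250 before to 50 after the start, as do 0.381% of all 27025 genes in the table. A match is a stretch of letters and not a measured binding site.

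Cytokines held 0.256% ± 0.0329 of normalized reads (25 of 38 detected). Il6, which acts on satellite cells and leukocytes, had 18172, 13338, 12917, 14309.6 and 7605 normalized reads. Csf1, the growth factor of macrophages, had 24858, 29917, 27279, 25341 and 24599, and Il33, an alarmin that acts on regulatory T cells, had 13071, 16947, 14195, 11181 and 4946. All 3 were lowest in library 5, but Csf1 differed only 1.22-fold between its highest and lowest library, against 3.43-fold for Il33. The lymphocyte cytokines Il4, Il13 and Il17a had at most 3 reads in every library. Complement and acute-phase genes held 0.484% ± 0.0774. Ptx3, a soluble pattern receptor, had 51142, 49273, 63489, 43609 and 27371 normalized reads, highest in library 3 and lowest in library 5, as Ccl2 was. C3, the central complement component, stood at 5605 ± 1388 per kb and Serping1, an inhibitor of complement, at 8916 ± 1514.

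The 23 TGF-β family ligands held 0.0367% ± 0.00244. The 17 genes listed as antagonists, not all of them secreted, held 0.490% ± 0.0233, of which Fstl1 alone held 0.384%. Bmp5 led the ligands at 871 ± 105 per kb, above Tgfb3 at 514 ± 154 in 5 of 5 libraries. Fstl1, a secreted follistatin-like protein, led the antagonists at 20496 ± 1325, followed by Bmper at 2123 ± 238 and Fst, follistatin, which binds activin and myostatin, at 1604 ± 242. Wnt ligands and R-spondins held 0.0161% ± 0.00146 and Wnt antagonists 0.134% ± 0.00458. Sfrp2, which binds Wnt proteins, stood at 8869 ± 1044 per kb and Wnt5a, the leading ligand, at 403 ± 50.2. Of these 23 Wnt ligands and R-spondins, 9 had at most 3 reads in every library, among them Wnt1, Wnt3a, Wnt7a and Wnt10a.

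**Figure D3:**
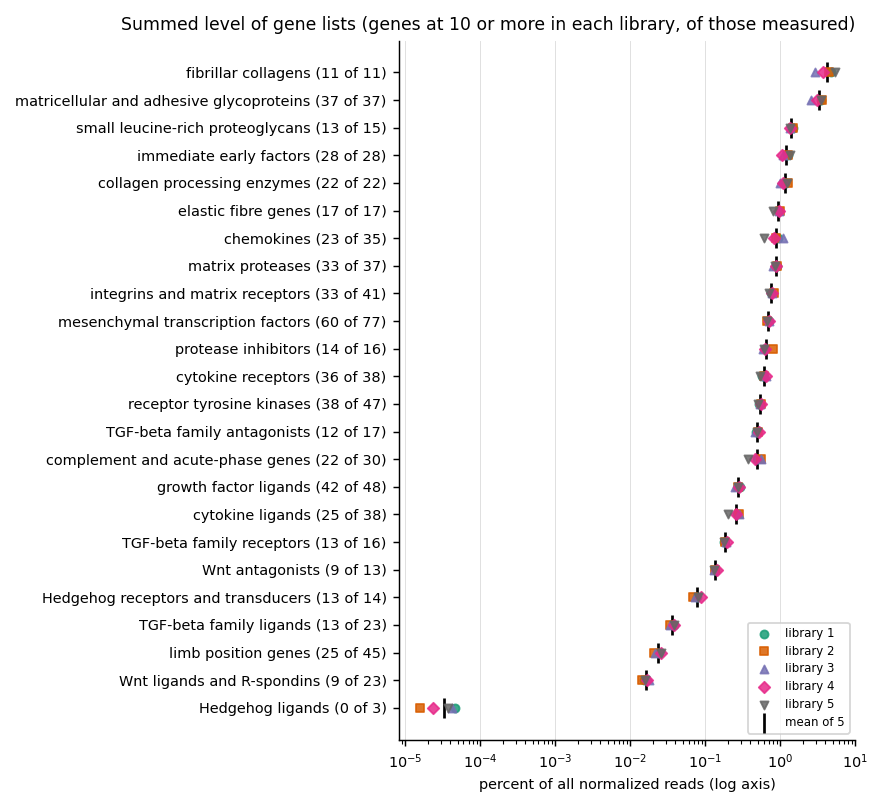
Summed level of gene lists for matrix, secreted factors, receptors and transcription factors as a percent of all normalized reads, on a log axis; symbols are the 5 FAP-ctrl libraries, black bars the mean, and brackets give members with at least 10 normalized reads in each library of those measured. Fibrillar collagens lie between 2.91% and 5.33%. Genes listed as TGF-β antagonists lie near 0.490% against 0.0367% for the ligands, with 0.384% from Fstl1 alone.

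Other growth factors held 0.277% ± 0.0148 (42 of 48 detected). Pros1 and Gas6 encode ligands of Axl, a receptor of apoptotic-cell clearance, and stood at 4627 ± 654 and 2002 ± 384 per kb, with Axl at 3405 ± 426. Fgf7, which acts on epithelium, stood at 1065 ± 125. Cthrc1, a secreted protein of activated fibroblasts, had 4903, 3473, 1571, 2981 and 4774 normalized reads, and its lowest library was library 3, as for Postn and the type I collagen genes. Aldh1a2, which makes retinoic acid, had 23383, 28723, 18747, 11359.9 and 9334, highest in library 2 and lowest in library 5.

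Hedgehog is the pathway named in the title of the series. A secreted ligand relieves the inhibition of Smo by Ptch1, and Gli factors then act at target genes that include Gli1, Ptch1 and Hhip. The 3 ligands were near 0: Shh had 4.27 normalized reads in library 1 and was listed at 0 in the other 4, Ihh had at most 2.73, and Dhh had 5.49, 2.14, 10.2, 6.07 and 6.38. Receiving components were present. Of the 14 genes listed as Hedgehog receptors and transducers, 13 were detected. The other, Disp1, was listed at 0 in every library, and nothing is read from that 0, as for Zeb1 below. Gas1, a co-receptor, had 8604, 6769, 7926, 10698 and 8295 normalized reads, and per kb it was 6.69-fold above Smo, the transducer, and higher in 5 of 5 libraries. With the longest transcript as length, Gas1 stood at 2857 and Smo at 634.9, so the fold depends on the length used. Smo at 427 ± 35.6 per kb and the co-receptor Cdon at 419.5 ± 35.7 differed by less than their spread, but not with the longest transcript as length, where they stood at 634.9 and 431.4. Gli3, which acts largely as a repressor, stood at 344 ± 41.9, Gli2 at 19.6 ± 3.87 and Gli1 at 7.85 ± 2.21. The target genes were low, with Ptch1 at 28.0 ± 3.40 per kb and Hhip at 37.8 ± 8.97. Gli1 had 51.2, 39.6, 22.4, 36.4 and 46.5 normalized reads, highest in library 1 and lowest in library 3.

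PDGF genes, too, had more receptor than ligand. Pdgfra stood at 4319 ± 703 per kb and Pdgfrb, the second receptor, at 1805 ± 334. The ligands stood at 88.8 ± 26.6 for Pdgfc, 61.1 ± 6.41 for Pdgfa, 47.5 ± 13.0 for Pdgfd and 0.776 ± 0.800 for Pdgfb, the form known from platelets and endothelium. Both receptors were above each ligand in 5 of 5 libraries.

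**Figure D4:**
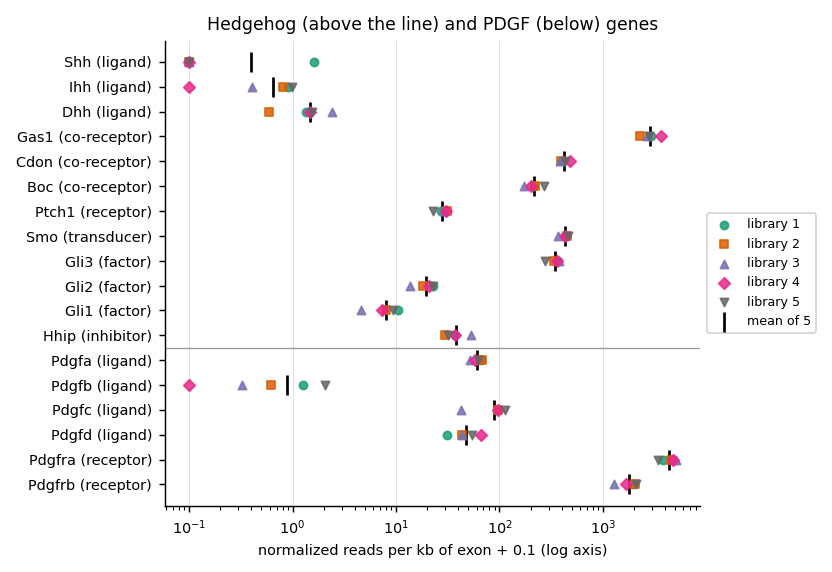
Hedgehog pathway genes (above the grey line) and PDGF genes (below) as normalized reads per kb of exon plus 0.1, on a log axis; symbols are the 5 FAP-ctrl libraries and black bars the mean. The Hedgehog ligands and Pdgfb lie at the low end, and Gas1 and Pdgfra at the high end.

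Receptor tyrosine kinases held 0.532% ± 0.0213 of normalized reads (38 of 47 detected). After Pdgfra and Axl came Ddr2, a collagen receptor, at 1951 ± 241 per kb, above Pdgfrb in 3 of 5 libraries, and Egfr at 1057 ± 123. Cytokine receptors held 0.606% ± 0.0497, and 21 of 36 detected were lowest in library 5. Il1r1, the receptor for IL-1, had 34876, 34992, 36137, 40450.4 and 24013 normalized reads, and Il6st, the chain shared by receptors of the IL-6 family, had 34035, 37891, 39934, 35191 and 26957. Library 5 was the lowest for both. Osmr, for oncostatin M, stood at 1125 ± 136 per kb and Tnfrsf1a, for TNF, at 2841 ± 237. Integrins and matrix receptors held 0.765% ± 0.0403. Itgb1, the shared β chain, was even, with 32658 to 38945 normalized reads, and Itga5, which pairs with it to bind fibronectin, stood at 4166 ± 628 per kb. Receptors of the TGF-β family were led by the co-receptor Tgfbr3 at 2489.7 ± 278, and G protein-coupled receptors by S1pr3, for sphingosine 1-phosphate, at 1779.7 ± 374.

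Immediate early genes are switched on within minutes by growth factors, stress or handling of tissue, and all 28 were detected. They held 1.28%, 1.27%, 1.09%, 1.07% and 1.33% of normalized reads in libraries 1 to 5. Fosb had 52289.5, 56186, 44846, 44777 and 44158 and ranked 38, Egr1 had 40706, 39763, 34443, 28382 and 48906, and Fos had 34630.3, 32823, 29596, 21927 and 39292. Egr1 and Fos were both lowest in library 4 and highest in library 5. Per kb, Fos at 13458 ± 2750.5 was above Egr1 at 8573 ± 1704 in 5 of 5 libraries. Klf6 at 8375 ± 826, Zfp36, which destabilizes cytokine mRNAs, at 8212 ± 1053 and Fosb at 7761 ± 875 lay within their spread of Egr1. With the longest transcript as length, Fosb, at 12811, was above Egr1, at 8573. Nuclear receptors were led by a further early gene, Nr4a1, at 3628 ± 504.

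Mesenchymal transcription factors (60 of 77 detected) varied about as much as genes in general. The median spread beyond counting error of the 44 members ranked for spread was 9.94% of the mean, beside 9.69% for all 8935 genes ranked. Prrx1, a factor of limb mesenchyme, had 26741, 24641, 28915, 28998 and 22943 normalized reads and ranked 94. Meox2 had 3256 to 3859.9 and Tbx15 3792 to 4487, and both are homeobox or T-box factors of muscle and limb connective tissue. Zeb1 was listed at 0 in every library, but so were Cox20, Med10 and Atxn3, which cells in general use, so nothing is read from that 0. Limb position genes were low: Hoxd8 stood at 220.5 ± 26.5 per kb, Hoxc10 at 149 ± 40.8, Hoxa10 at 126 ± 17.8 and Tbx4, a hindlimb factor, at 55.3 ± 11.4. Hoxb2 to Hoxb8 and Hoxb13 had at most 3 reads in every library. Hoxb2 and Hoxb13 were listed at 0 throughout, and nothing is read from that 0 either.

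Regulators of fat formation were detected for the most part (27 of 29), and 13 of the 27 were highest in library 5. Pparg, the main adipocyte factor, had 1075, 924, 1263, 1395 and 1708 normalized reads, highest in library 5, where Adipoq was also highest; the part of adipocyte RNA in this was not tested. Cebpa and Cebpb, which act with it, stood at 582 ± 56.5 and 765 ± 97.1 per kb. Cell cycle genes (35 of 36 detected) held 0.348% ± 0.0199. Pcna, the replication clamp, stood at 1845 ± 151 per kb, Top2a, a topoisomerase of dividing cells, at 1369.8 ± 134 and Mki67, a marker of dividing cells, at 948 ± 147.

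Most genes differed little between the libraries. Among 9053 protein-coding genes with a mean of at least 200, the median coefficient of variation was 10.3%. Counting error alone gave a median of 2.84%, and the spread beyond it had a median of 9.70%, since the 2 add as variances. Beyond counting error, the spread was under 10% of the mean for 4720 genes (52.1%) and at least 50% for 122 (1.35%). The last count rested on library 3, since it was 42 without that library. The highest library was at least 2-fold above the lowest for 489 genes (5.40%). The 12 with the smallest spread were Fam114a2, Zfp422, Mdh1, Rnf214, Rbm33, Wdr5, Ubl5, Pdhb, Hmox2, Acp1, Med4 and Ccdc163. Fam114a2 had 1608, 1616, 1622, 1600.3 and 1631 normalized reads, no more spread than counting gives.

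The 12 genes with the widest spread were Pianp, Cwc22, Gbp4, Ifi206, Hspa1b, Rsad2, Ifi208, Ifi213, Hspa1a, Ifi209, Mx1 and Phf11b. Pianp, which encodes a membrane protein, had 7.92, 721, 323, 10.4 and 13.7 normalized reads in libraries 1 to 5, so libraries 2 and 3 were high. Cwc22, a splicing factor, had 612, 618, 753, 4950.1 and 629.8, so library 4 alone was high. Most of the others belong to families induced by interferon. Ifi202b, of the same family as Ifi206 and Ifi208 and among the 40 genes with the widest spread, went another way: it had 11362, 9516, 71.7, 3661 and 15333 normalized reads, lowest in library 3 and highest in library 5, 214-fold apart. Of the 100 genes with the widest spread, 75 were highest in library 3, 73 lowest in library 4, and 66 both. Over all detected genes, 3524 of 13355 were highest in library 3 and 2136 lowest in library 4.

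Interferons bind receptors on nearly all nucleated cells, and the STAT and IRF factors they activate bind elements named ISRE in promoters of antiviral genes. A list of 39 interferon-stimulated genes was added after values were seen, so its pattern is a description. All 39 were detected and held 0.595%, 0.741%, 1.58%, 0.439% and 0.673% of normalized reads in libraries 1 to 5. Of the 39, 38 were highest in library 3 and 37 lowest in library 4. Rsad2, the antiviral enzyme viperin, had 3132, 3891, 14805, 1432 and 3139 normalized reads. Mx1, an antiviral GTPase, had 1731, 1694, 6938, 645 and 2204, and Ifit1, which binds foreign RNA, had 4388, 4633, 15494, 3043 and 5307. Isg15, a ubiquitin-like protein, had 2364, 3336, 5405, 1245 and 2945. In all 4 genes library 3 was the highest and library 4 the lowest. Ly6a and Irf7 are on this list too. Cxcl9 and Cxcl10, chemokines for T cells outside it, had 8923, 11053, 28301, 3696 and 9087, and 6866, 6594, 19394, 2639.9 and 5489.5 normalized reads, with the same extremes. The receptor chain Ifnar1 had 3121 to 3618. The macrophage list held 0.00857% in library 3 and 0.0121% in library 1, and its part in the interferon-stimulated genes was not tested.

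Promoters of 3 of these genes are shown because the genes shared their highest and lowest libraries. Each is the 200 bases before the start, 5′ to 3′ on the gene's strand, from RefSeq on GRCm38.p6, and capitals mark matches to GAAANNGAA, the core of an ISRE, on either strand, where N is any base and matches may overlap. They lie at chr19:34640689-34640888 (plus strand) for Ifit1, chr4:156200819-156201018 (minus strand) for Isg15 and chr12:26456453-26456652 (minus strand) for Rsad2.
Ifit1: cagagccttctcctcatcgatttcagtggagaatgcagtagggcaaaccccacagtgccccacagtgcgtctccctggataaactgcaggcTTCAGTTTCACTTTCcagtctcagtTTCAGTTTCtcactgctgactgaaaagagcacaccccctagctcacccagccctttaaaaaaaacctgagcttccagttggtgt
Isg15: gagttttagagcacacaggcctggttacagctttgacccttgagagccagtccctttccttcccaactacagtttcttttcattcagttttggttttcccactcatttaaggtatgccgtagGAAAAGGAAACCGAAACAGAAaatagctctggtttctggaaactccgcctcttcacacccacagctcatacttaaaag
Rsad2: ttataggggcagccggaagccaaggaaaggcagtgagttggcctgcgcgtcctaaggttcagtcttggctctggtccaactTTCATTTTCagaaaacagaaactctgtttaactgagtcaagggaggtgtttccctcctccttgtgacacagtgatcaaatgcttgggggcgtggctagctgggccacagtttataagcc
Ifit1 and Isg15 hold 3 matches each, some of which overlap, and Rsad2 holds 1, which begins 119 bases before the start. Of the 39 genes, 27 are in the promoter table, and 18 of these (66.7%) hold a match in their 300 bases, as do 9.76% of all 27025 genes in the table.

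Heat shock chaperones refold damaged proteins and are induced by heat or other stress. The 13 genes held 0.576%, 0.591%, 0.576%, 0.551% and 0.883% of normalized reads in libraries 1 to 5, and 11 of the 13 were highest in library 5; over all detected genes, 3006 of 13355 were. The inducible Hspa1b had 1591, 1388, 1616, 1002 and 7727 and Hspa1a 1153, 919, 1098, 555 and 4430.5. They are near-identical copies, so reads may be split between them. Hsph1, a co-chaperone, had 7199, 7898, 8211, 6399 and 23406, and Dnajb1, another, had 8725, 9329.5, 7070.4, 6023 and 18054. The constitutive Hspa8 was even, with 24205 to 27804. In the same library mitochondrial mRNAs, the chemokine list, Ptx3 and Il33 were lowest and fibrillar collagens highest; whether these share a source was not tested.

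The promoters of the inducible pair are shown because both were highest in library 5, with capitals for matches to GAANNTTC, inverted repeats of the heat shock unit. They lie at chr17:34959239-34959438 for Hspa1b and chr17:34972157-34972356 for Hspa1a, both on the minus strand.
Hspa1b: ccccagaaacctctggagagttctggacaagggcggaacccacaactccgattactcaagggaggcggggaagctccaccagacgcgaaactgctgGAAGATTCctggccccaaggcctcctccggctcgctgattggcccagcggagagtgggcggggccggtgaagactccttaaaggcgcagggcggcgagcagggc
Hspa1a: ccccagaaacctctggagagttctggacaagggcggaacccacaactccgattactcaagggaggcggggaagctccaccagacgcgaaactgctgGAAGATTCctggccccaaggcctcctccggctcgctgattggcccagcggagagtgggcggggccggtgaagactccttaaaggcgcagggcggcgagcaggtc
Each holds 1 match, which begins 104 bases before the start. Of the 13 chaperone genes, 9 are in the promoter table and 8 of these (88.9%) hold a match in their 300 bases, as do 9.04% of all 27025 genes.

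**Figure D5:**
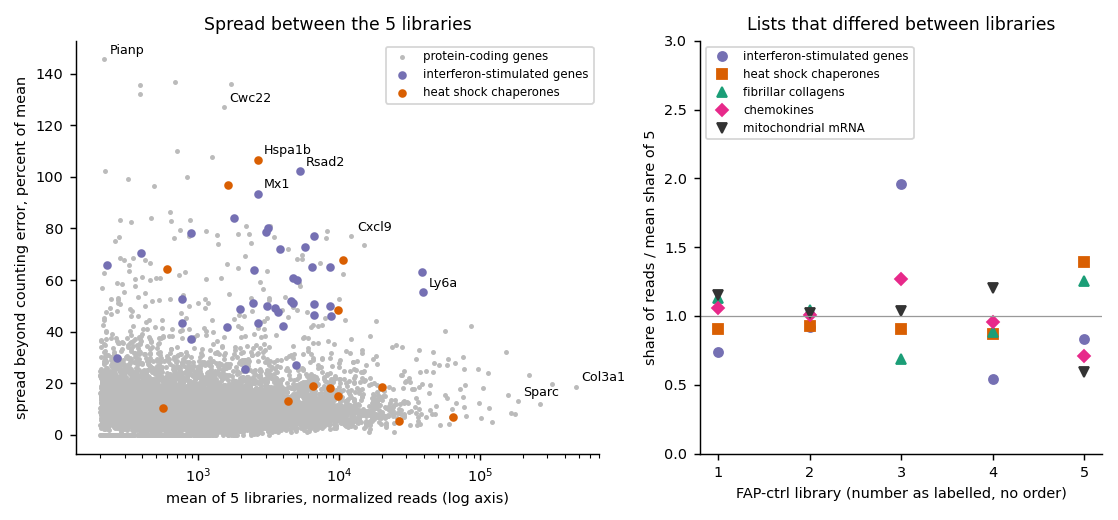
Left, spread between the 5 FAP-ctrl libraries beyond counting error (percent of the mean) against mean normalized reads (log axis) for protein-coding genes with a mean of at least 200, with interferon-stimulated genes and heat shock chaperones coloured. Right, share of reads of gene groups in each library divided by the 5-library mean: interferon-stimulated genes are highest in library 3 and heat shock chaperones in library 5.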

How the data were processed

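RNA of 5 FAP-ctrl libraries was analysed. Per the series design text and the submitters' processing notes, the authors aligned reads with STAR to GRCm38 and normalized counts with DESeq over all samples. How reads were counted per gene, with which strand setting and annotation release, is not given in the sources used here, so reads of overlapping, antisense or near-identical genes cannot be told apart. The deposited signal per gene is a read count divided by a library size factor: 100% of values were whole multiples of 1 read within 0.01 reads (largest deviation 7.78e-05), and the size factors recomputed over the 8 libraries differed by at most 3.89e-11 in relative terms.

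Genes were named by identifier from a GENCODE annotation of GRCm38 (32938 of 37991 matched), and lengths are unions of exons. Means, SDs, ranks, shares of the summed values and coefficients of variation were computed with Python 3.11.15, numpy 2.4.6 and pandas 2.3.3, TMM factors with edgeR 4.0.16 in R 4.3.3, and plots with matplotlib 3.10.9. Spread beyond counting error is the variance left after the Poisson part, and was checked on simulated data. No groups were compared, since 1 group is described; the only rule applied to single values was Dixon's outlier value for 5 libraries (0.71). Chi-square over degrees of freedom was 20.1 to 95.0 between libraries, so none was a copy.

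The members and the 58 lists were chosen with earlier results of these data known, and 2 of the lists (interferon-stimulated genes and endoplasmic reticulum chaperones) after values were seen here; 1249 of 1262 symbols were found. Genes named are the markers, up to 10 members of a list highest per kb, members at 3 reads or fewer, the 20 most abundant genes (1 is not reported here), the 10 protein-coding genes highest per kb, and the 12 with the widest and the 12 with the smallest spread, leaving out predicted and sex-linked genes. B2m, Ift88, Gli1, Gli2, Pdgfa, Pdgfb, Pdgfc and Pdgfd, Ifi202b, the sex-linked Xist and Ddx3y, and genes listed at 0 in every library fall outside this rule and were chosen after their values were seen. Alternatives were other scalings, filters, lengths, denominators and library sets.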

Additional observations from a re-analysis of the deposited data

Results flagged for a closer look

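In a set of 5 libraries a value was picked out when 1 library lay so far from the nearest of the others that the gap was over 0.71 of the whole range (Dixon's 95% value). Chance alone picks about 1 in 20 such sets. The sets tried include genes named for their wide spread, a list added after values were seen, and lists that share members with the genes named, so the number picked out is not to be set against that share. Among shares of all normalized reads, in percent, library 3 was highest for satellite cell and myoblast markers 0.0717 against 0.0401 to 0.0487, signal-dependent transcription factors 0.658 against 0.589 to 0.607 and interferon-stimulated genes 1.58 against 0.439 to 0.741 in the other 4 libraries. In the satellite cell list nearly all reads were of Vcam1, with 18485 normalized reads in library 3 against 9019 to 11914, and 1 of 5 detected members was highest there. Of 54 detected signal-dependent factors, 12 were highest and 16 lowest in library 3. Library 5 was highest for heat shock chaperones 0.883 against 0.551 to 0.591, and lowest for mitochondrial tRNA 0.00850 against 0.0164 to 0.0194 and elastic fibre genes 0.795 against 0.953 to 0.989. Fbn1 gave most of the reads of the elastic fibre list, and of its 17 detected members 9 were lowest in library 3 and 4 in library 5. Library 2 was highest for protease inhibitors 0.792 against 0.594 to 0.636, and library 4 for Wnt receptors 0.0778 against 0.0677 to 0.0702.

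Of the genes named, the following levels in normalized reads were picked out. Library 3 was highest for genes of the interferon group: Cxcl10 19394 against 2639.9 to 6866, Gbp4 2073 against 192 to 447, Ifi206 3564 against 258 to 973, Ifi208 2288 against 164 to 627, Ifi213 864 against 74.6 to 243, Ifit1 15494 against 3043 to 5307, Mx1 6938 against 645 to 2204 and Rsad2 14805 against 1432 to 3891 in the other 4. It was also highest for Pcna 5049.6 against 4134 to 4388 and Rbm33 2398 against 2334 to 2344, the former a replication clamp and the latter one of the genes with the smallest spread, and lowest for Pdgfc 218 against 484 to 571. Library 5 was highest for Dnajb1 18054 against 6023 to 9329.5, Hspa1a 4430.5 against 555 to 1153, Hspa1b 7727 against 1002 to 1616, Hsph1 23406 against 6399 to 8211 and Neat1 6568 against 990.2 to 1789.7. It was lowest for Cxcl12 40784 against 58994 to 61392, Fbn1 115792 against 161856 to 175059, mt-Co1 134871 against 230994 to 265285, mt-Co3 65595 against 118645 to 131030 and mt-Cytb 54167 against 101651 to 113788. Library 4 was highest for Cwc22 4950.1 against 612 to 753 and lowest for Hspa8 24205 against 26855 to 27804. Library 1, the deepest, alone had reads of Hoxb8 (0.610), Il17a (1.22) and Shh (4.27), which are levels of a few reads, while the other 4 were listed at 0. The causes were not tested.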

How the results depend on the processing

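The number of protein-coding genes with a spread of at least 50% beyond counting error was 122; it was 224 with a minimum mean of 50 and 460 with a minimum mean of 10, since low genes enter, and 116 with CPM values or TMM factors. Leaving out 1 library gave 42 to 144, with 42 without library 3. The lowest Pearson r between 2 libraries was 0.968 with a minimum mean of 50 and 0.988 with no filter, where genes at 0 enter, and the highest was 0.991 with no filter. CPM values moved the median gene by at most 0.09 on the log2 scale, in library 5. With the longest transcript as length, 65 of 187 levels per kb moved by 1 SD or more, by up to 2.38-fold. With protein-coding nuclear genes as the denominator, which leaves out mitochondrial mRNAs, 7 of 58 list shares moved by 1 SD or more. No paired analysis was possible because only 1 group is described. Depth limits the genes at a few reads: 18775 of 37991 had at most 3 reads in each library. Cox20, Med10 and Atxn3, which cells in general use, were at 0 in every library. The 0 of genes such as Ccl28, Wnt3a, Hoxb2 and Hoxb13 is therefore not read as absence.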
